A study of Homo sapiens with 6 samples.

Results

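The 7 genes described here encode the machinery that senses sterols in the endoplasmic reticulum and releases the SREBP transcription factors. They are SREBF1 and SREBF2, SCAP, INSIG1 and INSIG2, and MBTPS1 and MBTPS2, and each was taken by its symbol from a table of 31762 genes. Every symbol matched 1 gene, and all 7 passed the filter on low counts. With fluoxetine, INSIG1 rose 5.28-fold and SREBF2 rose 1.71-fold. SCAP, INSIG2 and both protease genes did not pass the test, and neither did SREBF1, whose call depended on the processing.

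SREBP proteins are made as precursors that sit in the membrane of the endoplasmic reticulum, bound to the escort protein SCAP. When the membrane holds enough cholesterol, SCAP binds an INSIG protein and the complex is retained. When cholesterol falls, the complex leaves in COPII vesicles for the Golgi, where the site-1 and site-2 proteases cut the precursor and free the part that enters the nucleus. That part switches on genes of cholesterol and fatty acid supply. Its known targets include INSIG1 and SREBF2, so the pathway feeds back on its own parts.

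The data came from H460, a human large cell lung carcinoma line, in 3 control libraries and 3 libraries of cells given 20 µM fluoxetine, a serotonin reuptake inhibitor, for 24 h. All cells were wild type and grown in RPMI-1640 medium with fetal bovine serum, so every group had lipoproteins supplied. The labels call the untreated group control and name no vehicle. Nothing says that the libraries of a group came from separate cultures, so p-values measure the spread between these libraries, which may be technical.

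Between 16157507 and 27823667 reads were counted on genes per library, and every fluoxetine library was shallower than every control library. Of 6 epithelial markers, 3 reached 10 CPM (counts scaled to library size, with TMM factors), namely the keratins KRT8, KRT18 and KRT19. EPCAM was at 4 to 11 counts and CDH1 at 0 or 1 count per library. The summed level of the epithelial list was 3058 to 4028 CPM in control libraries and 2689 to 3264 CPM with fluoxetine. Of 6 alveolar and airway markers 3 had a row in the table, and none of these (0) reached 10 CPM. Of 9 markers of blood, endothelium, stroma and liver 6 had a row, and of these only COL3A1 reached 10 CPM. That list summed to 17.0 to 20.1 CPM in control libraries and 12.4 to 13.5 CPM with fluoxetine. The part of these markers in the results was not tested.

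Among all 15646 tested genes, 7.76% were higher with fluoxetine at an adjusted p under 0.05 (edgeR's quasi-likelihood test, Benjamini-Hochberg over all tested genes), 5.32% were lower, and 13.1% differed in either direction. Of the 7 genes, 2 were called and both rose. A fold change of at least 2 as well was reached by 1 of the 7, against 1.39% of all tested genes in either direction and 1.25% among rises. An unadjusted p under 0.05 was reached by 3 of the 7, against 28.7% of all tested genes. All 7 estimates were above 0, with a median log2 fold change of 0.12, while the median of all tested genes was 0.03. Fluoxetine and control libraries did not overlap for 2 of the 7, against 31.9% of all tested genes. In both, the fluoxetine libraries were the higher ones, which held for 17.5% of tested genes.

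**Figure D1:**
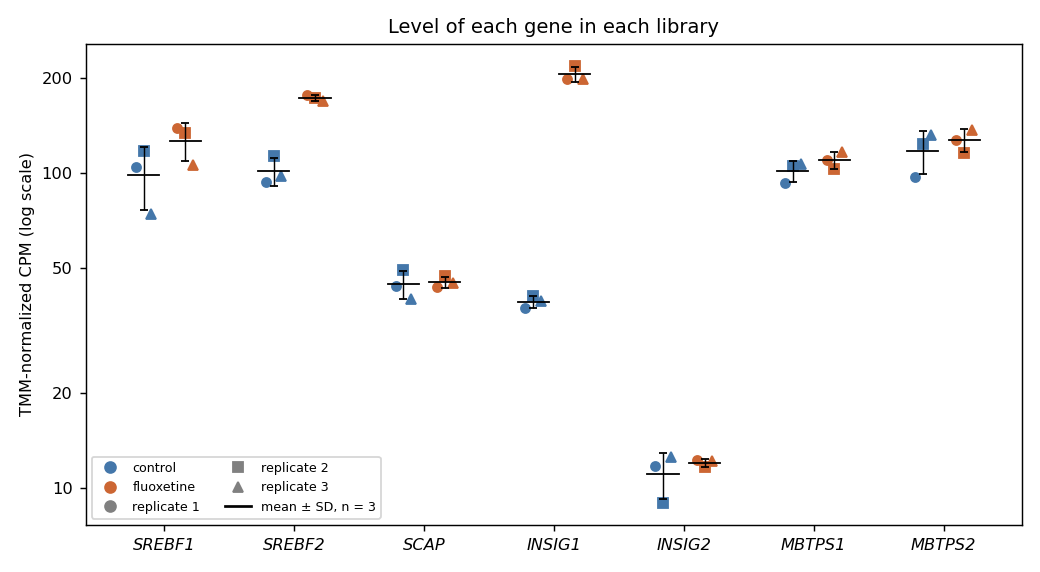
Level of each of the 7 genes in each library, in TMM-normalized CPM on a log axis; points are libraries with the shape giving the replicate number, and bars are the mean ± SD of 3 libraries. INSIG1 and SREBF2 are the genes whose fluoxetine points all lie above their control points.

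SREBF2 encodes SREBP2, the factor that mainly drives cholesterol synthesis and uptake. The gene (ENSG00000198911) spans chromosome 22 from 41833079 to 41907308 on the plus strand. Control replicates 1, 2 and 3 held 2059, 2173 and 2706 reads of it, and the fluoxetine libraries held 2917, 2908 and 2904. Scaled for depth these were 93.4, 113.2 and 97.5 CPM in control cells and 177.1, 173.0 and 169.1 CPM with fluoxetine. The lowest fluoxetine library lay far above the highest control library, and the fluoxetine libraries were closer to each other than the control libraries were. The control mean was 101.4 CPM (SD 10.5, n = 3), and the fluoxetine mean was higher at 173.1 CPM (SD 4.01, n = 3). On the log2 scale the gene rose by 0.77 ± 0.08 (SE; adjusted p = 3.39e-04, edgeR), and by 0.76 with all libraries thinned to the same depth. The 95% interval of the fold was 1.501 to 1.94, which stays below a doubling. The gene ranked 114th of 15646 by p-value.

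A non-coding gene on the other strand, AL021453.1, shares 280 exonic bases with SREBF2 and had 3.12% of its counts. It averaged 4.18 CPM (SD 0.400, n = 3) in control libraries and 3.97 CPM (SD 0.983, n = 3) in fluoxetine libraries, and did not pass the test (adjusted p = 0.838, edgeR).

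SREBF1 encodes SREBP1, whose isoforms mainly serve fatty acid synthesis. The counts are per gene, so the isoforms SREBP1a and SREBP1c cannot be told apart. The gene (ENSG00000072310) lies on the minus strand of chromosome 17 from 17810399 to 17837002. Its levels were 104.8, 117.2 and 74.1 CPM in control replicates 1, 2 and 3, and 139.3, 133.6 and 106.3 CPM in fluoxetine replicates 1, 2 and 3. The groups overlapped, because the third fluoxetine library lay below the second control library. Replicate 3 was the lowest library in both groups. Control libraries averaged 98.7 CPM (SD 22.2, n = 3) and fluoxetine libraries 126.4 CPM (SD 17.6, n = 3), the widest relative spread of the 7 genes in either group. Its log2 fold change of 0.36 ± 0.16 (SE) had an unadjusted p of 0.0431 and an adjusted p of 0.159 in edgeR, and the 95% interval of the fold ran from 1.01 to 1.63.

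The SREBF1 estimate was above 0 in all 16 alternative fits and past the adjusted threshold in 4 of them. Among these, it was called when each library's trends with GC content and transcript length were removed (0.39, adjusted p = 0.00821, edgeR), without the third replicate of both groups (0.30, adjusted p = 0.0341, edgeR) and with no filter on low counts (0.32, adjusted p = 0.00832, edgeR). The SE in these fits was 0.07, 0.09 and 0.09 in that order, against 0.16 in the main fit. The calls thus came with a smaller SE, at estimates near the 0.36 of the main fit. Removing the trends and leaving out the third replicates were chosen after the data had been seen. The same fits called 3372, 2732 and 2909 of all tested genes in that order, against 2047 in the main fit. The fit with no filter tested 31762 genes, against 15646 in the main fit. Without control replicate 3 the estimate fell to 0.16 (adjusted p = 0.352, edgeR). SREBF1 has the highest GC content of the 7 in its longest transcript, 62.8%, which is above that of 94.0% of tested genes. SCAP is close to it at 62.3%, and its log2 fold change was 0.03 in the main fit and 0.06 with those trends removed (adjusted p = 0.716, edgeR). The part of GC content in the SREBF1 call was not tested. Across the 3 control libraries the log2 deviations of SREBF1 from the group mean were 0.11, 0.27 and -0.39.

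RAI1, a transcriptional regulator gene on the plus strand, overlaps the end of SREBF1 and shares 556 exonic bases with it. Its mean count was 25.4% of that of SREBF1. RAI1 was at 24.6, 34.0 and 21.8 CPM in the control libraries and 33.7, 31.1 and 24.7 CPM with fluoxetine, so it was also lowest in the third replicate of both groups. Its log2 fold change was 0.16 (adjusted p = 0.601, edgeR). Whether the counting used strand is not given in the sources used here, and the part of shared reads was not tested. The microRNA gene MIR33B, which lies inside SREBF1, had 1 count in all 6 libraries together.

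SCAP encodes the sterol-sensing escort. The gene (ENSG00000114650, chromosome 3, 47413694 to 47477126, minus strand) was at 43.8, 49.1 and 40.0 CPM in control replicates and 43.4, 47.0 and 44.8 CPM in fluoxetine replicates. All fluoxetine values lay inside the range of the control values. Its log2 fold change was 0.03 ± 0.10 (SE; adjusted p = 0.893, edgeR), and the 95% interval of the fold was 0.878 to 1.18. A rise of the size seen for SREBF2 lies outside this interval.

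INSIG1 encodes the retention protein that is made on demand, with a short half-life and strong control by SREBP itself. The gene (ENSG00000186480) spans chromosome 7 from 155297776 to 155310235 on the plus strand, and no other gene of the table overlaps it. Control libraries held 821, 779 and 1086 reads, and the shallower fluoxetine libraries held 3274, 3679 and 3423. In CPM these were 37.2, 40.6 and 39.1 in control cells and 198.8, 218.8 and 199.3 with fluoxetine. Every fluoxetine library was thus several times above every control library, with little spread on either side. The control mean was 39.0 CPM (SD 1.68, n = 3) against 205.6 CPM (SD 11.4, n = 3) with fluoxetine. On the log2 scale the rise was 2.40 ± 0.08 (SE; adjusted p = 2.16e-07, edgeR), a fold of 5.28 with a 95% interval of 4.68 to 5.95. At equal depth the rise was 2.39. It had the smallest p-value of all 15646 tested genes in this fit and ranked 14th by the size of the rise.

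INSIG2 encodes the second retention protein, which does the same work but is not a target of SREBP in the same way and is turned over more slowly. The gene (ENSG00000125629, chromosome 2, 118088452 to 118110997, plus strand) was counted 172 to 348 times per library, the fewest of the 7. Its levels were 11.7, 8.96 and 12.5 CPM in control replicates and 12.3, 11.7 and 12.2 CPM in fluoxetine replicates, and the groups overlapped. The log2 fold change was 0.11 ± 0.14 (SE; adjusted p = 0.630, edgeR), and the 95% interval of the fold was 0.870 to 1.34. Without control replicate 2 the estimate was -0.05 (adjusted p = 0.885, edgeR).

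MBTPS1 encodes the site-1 protease, a serine protease of the Golgi that makes the first cut. The gene (ENSG00000140943, chromosome 16, 84053761 to 84116906, minus strand) was at 92.8, 104.9 and 106.6 CPM in control replicates and 110.1, 102.7 and 116.8 CPM with fluoxetine. The log2 fold change was 0.12 ± 0.08 (SE; adjusted p = 0.412, edgeR), and the interval of the fold was 0.953 to 1.23.

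MBTPS2 encodes the site-2 protease, a metalloprotease that makes the second cut inside the membrane. The gene (ENSG00000012174, chromosome X, 21839636 to 21885424, plus strand) was at 97.2, 123.9 and 132.3 CPM in control replicates and 127.4, 116.0 and 137.1 CPM with fluoxetine. The log2 fold change was 0.11 ± 0.11 (SE; adjusted p = 0.601, edgeR), and the interval of the fold was 0.904 to 1.28. Both protease genes thus overlapped between the groups. YY2, a gene that lies within MBTPS2 on the same strand, had 3.63% of the counts of MBTPS2, and a Y_RNA gene there had 8.26%. Neither passed the test, with log2 fold changes of 0.11 and 0.13 (adjusted p = 0.732 and 0.601, edgeR).

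**Figure D2:**
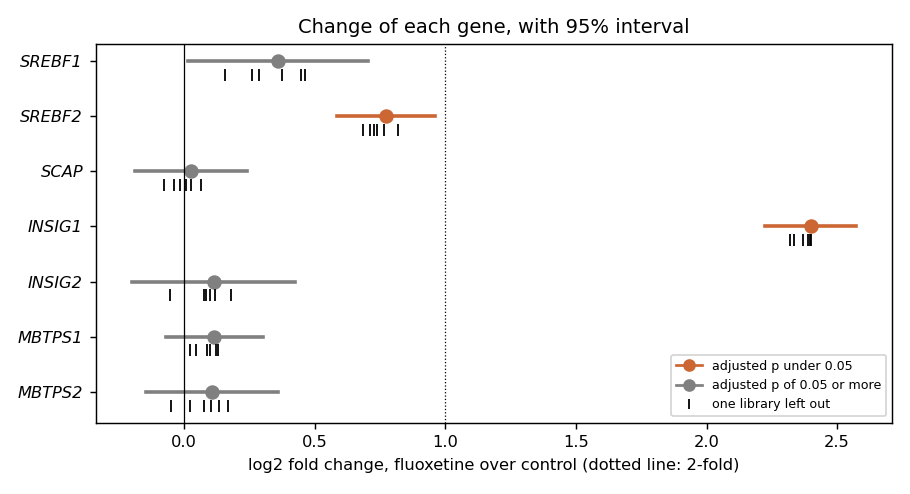
Log2 fold change of fluoxetine over control for each gene (points) with its 95% interval (lines) from edgeR; ticks below give the estimate with each library left out in turn. INSIG1 lies at 2.40 and SREBF2 at 0.77, and the intervals of SCAP, INSIG2, MBTPS1 and MBTPS2 include 0.

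The starts of SREBF2 and INSIG1 are shown with those of their paralogues, because 1 gene of each pair was called and the other was not. The windows hold 250 bases before and 50 after the start of transcription in RefSeq (build GRCh38.p14, printed in the direction of the gene). They are chr22:41832855-41833154 on the plus strand, chr17:17836937-17837236 on the minus strand, chr7:155297628-155297927 on the plus strand and chr2:118088221-118088520 on the plus strand, the first of 2 windows listed for INSIG2. Capitals mark matches, on either strand, to the sterol regulatory element TCACCCCAC, its looser core TCACNCCAC, the E-box CACGTG or the CCAAT box.
SREBF2: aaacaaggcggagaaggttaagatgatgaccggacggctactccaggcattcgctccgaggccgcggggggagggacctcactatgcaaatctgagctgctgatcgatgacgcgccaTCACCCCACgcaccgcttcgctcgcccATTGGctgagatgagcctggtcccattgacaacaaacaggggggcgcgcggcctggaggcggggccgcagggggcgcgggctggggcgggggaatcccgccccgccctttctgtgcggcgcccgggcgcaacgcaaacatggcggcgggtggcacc
SREBF1: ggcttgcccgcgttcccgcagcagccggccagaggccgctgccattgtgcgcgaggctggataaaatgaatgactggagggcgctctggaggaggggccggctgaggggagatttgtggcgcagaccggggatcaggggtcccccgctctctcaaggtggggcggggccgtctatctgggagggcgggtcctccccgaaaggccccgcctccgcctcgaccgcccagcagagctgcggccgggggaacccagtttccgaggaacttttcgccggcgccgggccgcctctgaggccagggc
INSIG1: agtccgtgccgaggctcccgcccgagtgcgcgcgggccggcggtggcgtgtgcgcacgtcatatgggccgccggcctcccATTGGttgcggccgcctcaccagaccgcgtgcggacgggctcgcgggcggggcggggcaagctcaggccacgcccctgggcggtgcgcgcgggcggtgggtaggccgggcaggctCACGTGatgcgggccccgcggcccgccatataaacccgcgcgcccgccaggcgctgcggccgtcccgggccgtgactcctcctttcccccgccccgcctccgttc
INSIG2: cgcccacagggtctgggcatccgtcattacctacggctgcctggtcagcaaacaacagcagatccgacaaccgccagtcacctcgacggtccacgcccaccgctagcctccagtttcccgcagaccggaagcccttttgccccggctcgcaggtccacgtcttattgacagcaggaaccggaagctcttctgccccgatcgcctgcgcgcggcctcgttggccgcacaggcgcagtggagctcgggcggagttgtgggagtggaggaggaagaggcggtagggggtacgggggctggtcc

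The SREBF2 window holds the sterol regulatory element, which begins 133 bases before the start and is also a match to the core, and a CCAAT box on the other strand that begins 106 bases before it. The INSIG1 window holds an E-box that begins 55 bases before the start and a CCAAT box on the other strand that begins 170 bases before it. Neither paralogue's window holds any of these motifs. Of the other windows of the 7 genes, only that of SCAP has a match, an E-box 58 bases before its start. Among 34796 windows of the same length, the sterol regulatory element was found in 0.422%, its core in 1.12%, the E-box in 7.20% and the CCAAT box in 34.6%. The GC box GGGCGG, not marked, was found in 44.9% of windows, and it occurs 6 times at INSIG1, 4 at SCAP, 3 at SREBF1, 3 at SREBF2 and once at INSIG2. The sterol regulatory element was found at 142 genes, 53 of which were tested, and 10 of these were called higher (SREBF2 among them) and 3 lower, against 7.76% higher and 5.32% lower among all tested genes. These counts are a description, with no test. The match is a description of the letters in these windows, and other starts of the genes were not searched.

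Levels of different genes were compared per kilobase of exonic length. In control cells SREBF2 was at 13.4 ± 1.39 CPM per kb (SD, n = 3), MBTPS2 at 13.2 ± 2.05, SREBF1 at 12.3 ± 2.76, INSIG1 at 10.7 ± 0.460 and MBTPS1 at 9.91 ± 0.737. These 5 formed a continuum in which each range overlapped that of its neighbour. SCAP followed at 6.88 ± 0.712 CPM per kb and INSIG2 at 2.81 ± 0.476, each below the gene before it in all 3 libraries without overlap. With fluoxetine INSIG1 was first at 56.3 ± 3.13 CPM per kb (SD, n = 3) and SREBF2 second at 22.9 ± 0.530. SREBF1 at 15.7 ± 2.20 and MBTPS2 at 14.2 ± 1.19 CPM per kb overlapped. MBTPS1 at 10.7 ± 0.688, SCAP at 7.001 ± 0.285 and INSIG2 at 3.05 ± 0.0826 CPM per kb came last, in the same order as in control cells. With the longest transcript as the length, INSIG1 was again first with fluoxetine, and SCAP and INSIG2 were again the lowest in both groups, whereas MBTPS2 came first in control cells.

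INSIG1 made up 15.6%, 14.9% and 15.9% of the summed level per kb of the 7 genes in control replicates 1, 2 and 3. With fluoxetine it made up 41.9%, 45.2% and 43.0%. The share of SREBF2 was 19.4% ± 0.606 (SD, n = 3) in control libraries and 17.6% ± 0.385 (SD, n = 3) in fluoxetine libraries. Its level was higher with fluoxetine, at 22.9 against 13.4 CPM per kb. The share of SCAP went from 9.95% ± 0.650 to 5.39% ± 0.180 while its level did not pass the test.

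**Figure D3:**
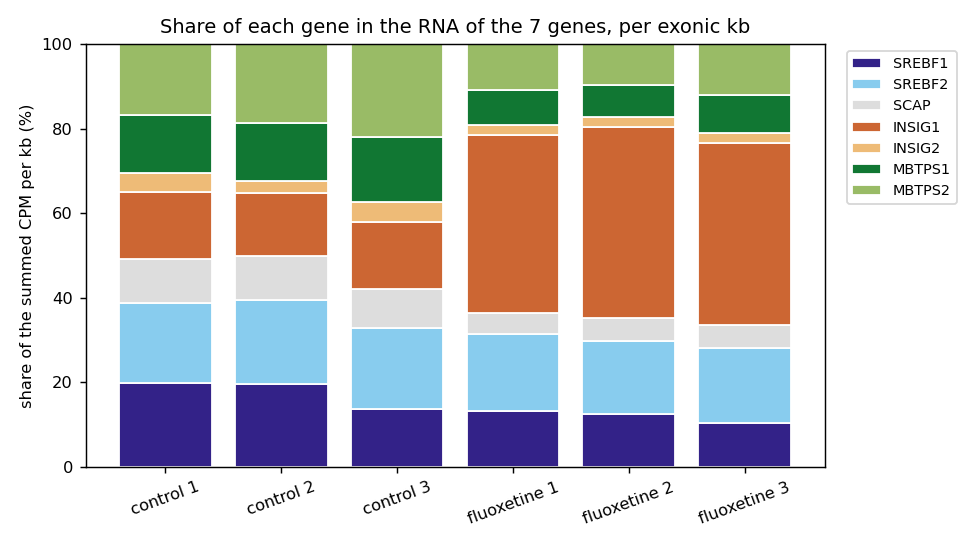
Share of each gene in the summed CPM per exonic kb of the 7 genes, in percent, 1 bar per library. The INSIG1 segment takes 14.9% to 15.9% of the control bars and 41.9% to 45.2% of the fluoxetine bars.

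Ratios within a library do not depend on its depth. INSIG1 exceeded INSIG2 per kb by 3.43, 4.90 and 3.38 times in control replicates and by 17.5, 20.3 and 17.7 times with fluoxetine. The summed INSIG level stood at 1.94, 1.75 and 2.24 times that of SCAP in control replicates and at 8.54, 8.61 and 8.29 times with fluoxetine. In both cases all fluoxetine libraries lay above all control libraries. The log2 ratio of INSIG1 to INSIG2 rose by 2.27 and that of both INSIG genes to SCAP by 2.11, each with p = 0.1 in a two-sided exact permutation test over libraries (adjusted over 4 ratios, 0.2). This is the smallest p that 3 libraries against 3 allow, so no ratio could pass 0.05.

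The ratio of SREBF1 to SREBF2 per kb was 1.06, 0.974 and 0.715 in control replicates and 0.740, 0.727 and 0.592 with fluoxetine. The groups overlapped because control replicate 3 lay among the fluoxetine values, and the log2 ratio differed by -0.40 (exact permutation p = 0.3, adjusted 0.4). The size of such a ratio depends on the length used. With the longest transcript SREBF1 was above SREBF2 in control cells, at 21.2 against 17.8 CPM per kb on average. The difference between the groups was also -0.40 without division by length. The ratio of MBTPS1 to MBTPS2 was 0.758 ± 0.0668 (SD, n = 3) in control cells and 0.756 ± 0.0149 (SD, n = 3) with fluoxetine (exact permutation p = 1).

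**Figure D4:**
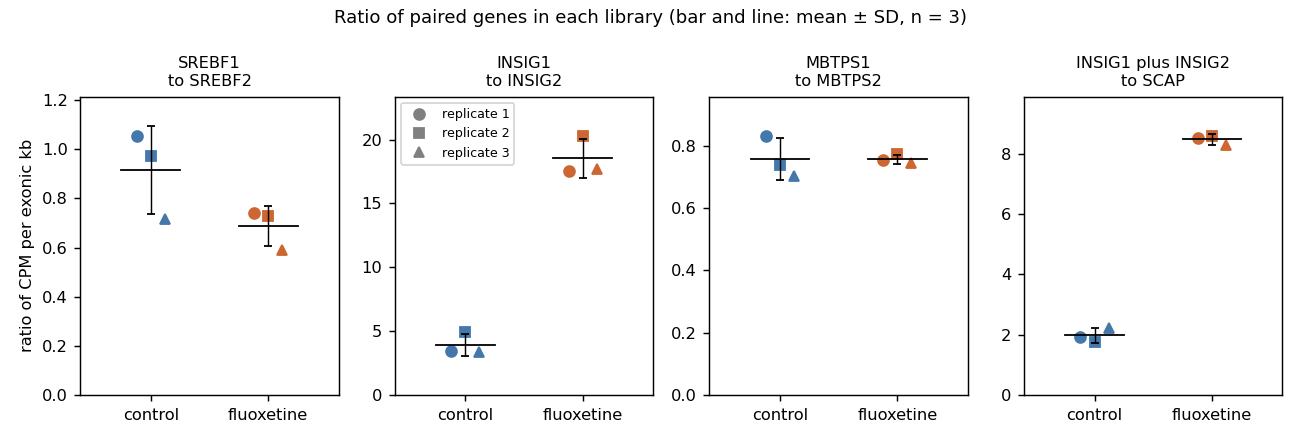
Ratios of paired genes within each library, from CPM per exonic kb on linear axes that start at 0; points are libraries, and bars give the mean ± SD of 3. The INSIG1 to INSIG2 ratio sits at 3.38 to 4.90 in control and 17.5 to 20.3 in fluoxetine libraries, and the MBTPS1 to MBTPS2 ratio is about 0.76 in both groups.

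By the root mean square difference of log2 CPM from the control mean over the 6 libraries, the genes most like INSIG1 were FADS2 (0.11), RRAGD (0.14) and LIPG (0.17). FADS2 encodes a fatty acid desaturase and went from 52.3 ± 4.42 to 250.6 ± 10.4 CPM (SD, n = 3 each). RRAGD encodes a Rag GTPase and went from 4.77 ± 0.390 to 27.7 ± 2.98 CPM (SD, n = 3 each). LIPG encodes an endothelial lipase and went from 3.16 ± 0.409 to 18.9 ± 1.18 CPM (SD, n = 3 each). FADS2 overlaps FADS1 on the other strand, so its count is uncertain if strand was not used.

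Around the 7 genes, most listed genes of sterol synthesis and uptake rose. Many of them are known targets of the pathway, but target status was not tested gene by gene. Of 21 genes of sterol synthesis 18 were called, all of them higher, against 7.76% of all tested genes called higher. The median log2 fold change was 1.35 over the 21 tested and 0.03 over all tested genes. MSMO1, a sterol C4-methyl oxidase, went from 50.3 ± 2.74 to 217.9 ± 9.29 CPM (SD, n = 3 each). HMGCS1, which makes HMG-CoA, had a log2 fold change of 2.65, and LSS, which closes the sterol rings, had 1.81. PMVK, LBR and CYP51A1 did not pass, with log2 fold changes of -0.08, 0.02 and 0.84, and CYP51A1 was counted 21 to 36 times per library. All 6 measured genes in the list of sterol uptake and related genes were called higher, with a median of 1.16. With 1 library left out at a time, 4 to 6 of them were called, and 4 without control replicate 1, control replicate 2, fluoxetine replicate 1 or fluoxetine replicate 3. They included LPIN1, a phosphatidate phosphatase (1.71), and NPC2, which carries cholesterol in the lysosome (1.65).

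Of 14 tested fatty acid genes 10 were called higher and none (0) lower, against 7.76% and 5.32% of all tested genes. All 14 estimates were above 0, with a median log2 fold change of 1.01. SCD, which introduces the first double bond, went from 755.3 ± 54.7 to 2703 ± 215.5 CPM (SD, n = 3 each). FADS2 had a log2 fold change of 2.26 and ACSS2, which makes acetyl-CoA from acetate, had 1.66. By contrast, 5 of the 7 machinery genes had log2 fold changes of 0.03 to 0.36 and did not pass.

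The next genes encode proteins that carry or hold the SCAP complex. Of 13 tested COPII genes 1 was called, a share below the 13.1% of all tested genes. It was SEC24D, a cargo-binding coat subunit, with a log2 fold change of 0.35 (adjusted p = 0.0405, edgeR). The median of the 13 was 0.14. With 1 library left out at a time, SEC24D was called in 1 of 6 edgeR fits, that lacking control replicate 3, and in the others its adjusted p reached 0.212.

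Of 20 genes that retain, degrade or stabilise the machinery, 3 were called, a share near the 13.1% of all tested genes, and the median was 0.03. RNF145, a ubiquitin ligase that acts on SCAP, went from 89.9 ± 4.38 to 129.8 ± 7.84 CPM (SD, n = 3 each), a log2 fold change of 0.53 (adjusted p = 0.00201, edgeR). It was called in all 6 fits that left out 1 library. C12orf49, also named SPRING1, is needed for site-1 protease and SCAP function, and it had a log2 fold change of 0.44 (adjusted p = 0.0124, edgeR). AUP1, a partner of ubiquitin ligases at the endoplasmic reticulum and lipid droplets, had -0.34 (adjusted p = 0.0334, edgeR). C12orf49 and AUP1 each lost the call without control replicate 1, control replicate 2, fluoxetine replicate 1 or fluoxetine replicate 3, with adjusted p-values from edgeR of up to 0.0866 and 0.150. The ubiquitin ligase genes SYVN1 and RNF139 had log2 fold changes of 0.04 and 0.12 and did not pass.

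Other substrates of the site-1 and site-2 proteases gave 2 calls among 6 tested genes, against 13.1% of all tested genes, with a median of 0.06. CREB3L2, a membrane-bound transcription factor, had a log2 fold change of 0.41 and GNPTAB, an enzyme that tags lysosomal hydrolases, had 0.38 (adjusted p = 0.0356 and 0.0495, edgeR). Both lost the call without control replicate 1 or 2 or fluoxetine replicate 1 or 3. ATF6, the stress sensor cut by the same proteases, had 0.09 (adjusted p = 0.494, edgeR).

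Of 10 tested LXR genes, 2 were called and both fell, against 5.32% of all tested genes called lower. LXR is the nuclear receptor that responds to oxysterols, and SREBF1 is among its known targets. ABCA1, a cholesterol exporter, went from 3.21 ± 0.318 to 1.85 ± 0.370 CPM and ABCG1, its partner in export, from 3.34 ± 0.570 to 1.89 ± 0.328 CPM (SD, n = 3 each). Their log2 fold changes were -0.80 and -0.83 (adjusted p = 0.0344 and 0.0345, edgeR). ABCA1 kept the call only without control replicate 3 and ABCG1 only without control replicate 2 or 3. The receptor genes NR1H2 and NR1H3 had -0.11 and 0.24 and did not pass.

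**Figure D5:**
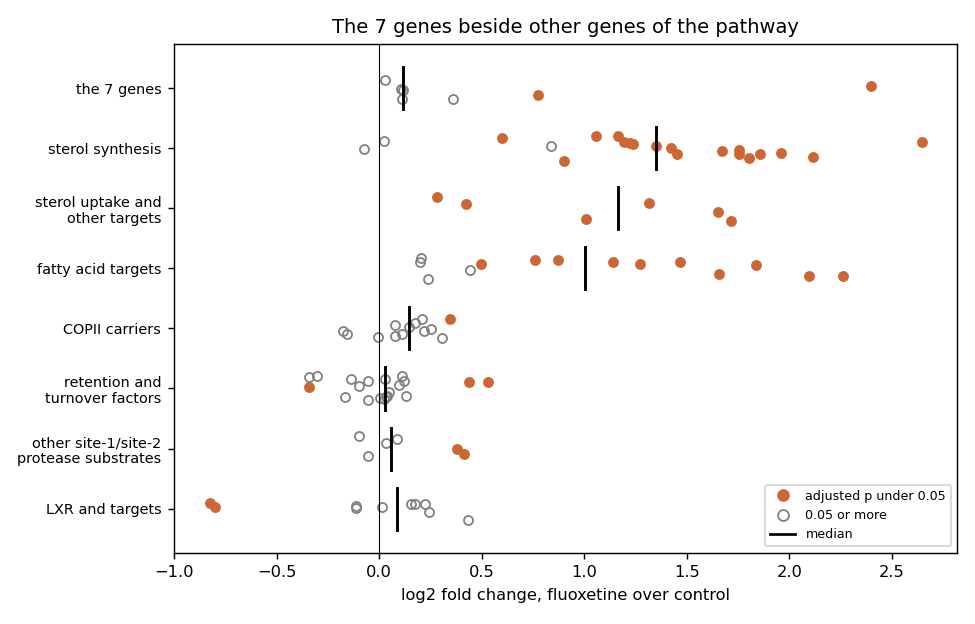
Log2 fold change of fluoxetine over control for the 7 genes and for tested genes of 7 other groups of the pathway; filled points passed an adjusted p of 0.05 in edgeR, open points did not, and black lines are medians. The 3 groups of sterol synthesis, sterol uptake and fatty acid genes centre between 1.01 and 1.35, and the 4 other groups between 0.03 and 0.14.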

How the data were processed

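RNA of H460 cells was sequenced as paired-end reads in 3 control and 3 fluoxetine libraries. Per the labels, the submitters' processing notes name fastp 0.20.0, HISAT2 2.1.0, HTSeq 0.10.0 and DESeq2 1.18.1. The authors deposited the raw count of each gene in each library, without normalization. They also deposited the log2 fold change of their own comparison, with its p-value and adjusted p-value, and these were not used. The genome build is not given in the sources used here. Of the 31635 genes shared with GENCODE release 29 (GRCh38), 96.8% had identical coordinates.

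Counts were tested with edgeR 4.0.16 in R 4.3.3 (quasi-likelihood test, TMM scaling, its filter on low counts, no covariate), with Benjamini-Hochberg adjustment over 15646 genes. A call is an adjusted p under 0.05. CPM use TMM-scaled library sizes. A count of 0 allows 3 counts, or 0.108 to 0.186 CPM, which covers counting error only, and all 7 genes were far above it. Exonic length is the union of exons in GENCODE release 29. The fits were tested on simulated data.

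Alternatives were DESeq2 1.42.0, limma-voom (limma 3.58.1), RLE or library size scaling, other filters on low counts, thinning to 16157507 counts, a replicate block and leaving out libraries. Removing GC content and length trends (known for 99.7% of tested genes) and leaving out replicate 3 of both groups were chosen after seeing the data. The 7 genes and all gene lists were chosen with earlier results of these data known. Named genes are the 7, genes overlapping them, up to 3 called genes per list by p-value, and the 3 genes most like INSIG1, and a gene that this rule covers is not reported here. PMVK, LBR, CYP51A1, SYVN1, RNF139, ATF6, NR1H2 and NR1H3 were named after their values were seen. The letters searched for the sterol regulatory element, which leave off the first base of the usual form, were set after a search with that base had been seen.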

Additional observations from a re-analysis of the deposited data

How the results depend on the processing

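INSIG1 and SREBF2 were called and higher in all 16 alternative fits, with log2 fold changes of 2.32 to 2.42 and 0.68 to 0.82. SREBF1 was called in 4 of them, among them 0.32 with no filter on low counts, 0.30 without replicate 3 of both groups and 0.39 with GC content and length trends removed, and leaving out libraries gave 0.16 to 0.46. The same fits gave 2 to 3 called members. SCAP was at -0.0039 with DESeq2, -0.00031 with RLE scaling and -0.0094 with no filter on low counts, -0.0391 without replicate 3 of both groups, and -0.0768 to 0.0650 when libraries were left out. MBTPS2 was at -0.0094 with GC content and length trends removed and -0.0494 to 0.17 when libraries were left out, and INSIG2 ranged from -0.0543 to 0.179 with 1 library left out and was at 0.20 without replicate 3 of both groups. The log2 ratio of MBTPS1 to MBTPS2 differed by 5.4e-04, by -0.017 at equal depth, and by -0.0518 to 0.0699 when libraries were left out. These changes of sign lie around 0, and the cause was not tested.

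Replicate numbers were not treated as pairs in the main fit, and the values on pairing were mixed. The correlations of same-numbered deviations were 0.03, 0.12 and 0.39. Control replicate 1 correlated best with fluoxetine replicate 2 (0.32), whereas control replicates 2 and 3 correlated best with the fluoxetine library of the same number. The replicate block called 4018 genes against 2047, SREBF1 at 0.37 (adjusted p = 2.27e-04, edgeR), 3 COPII genes and 5 retention and turnover genes. Removing GC content and length trends called 3372 genes, no filter on low counts 2909 and leaving out replicate 3 of both groups 2732. Leaving out libraries called 572 (without fluoxetine replicate 1) to 3633 genes (without control replicate 3). Upward calls were 59.3% of all calls, 48.8% with DESeq2 and 47.9% with no filter. No filter called 5 retention and turnover genes and 5 of the 6 sterol uptake genes, and thinning 0 COPII genes. Other protease substrates gave 1 call with limma-voom, RLE and thinning. Leaving out libraries gave 0 to 3 COPII calls, 1 to 5 of retention and turnover, 0 to 2 of other substrates and 0 to 2 of LXR genes. With the longest transcript as length, control levels were 21.2 CPM per kb for SREBF1, 17.8 for SREBF2, 10.1 for SCAP, 13.0 for INSIG1, 3.48 for INSIG2, 23.4 for MBTPS1 and 26.4 for MBTPS2. With fluoxetine they were 27.2, 30.4, 10.3, 68.3, 3.78, 25.3 and 28.5 in that order.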
